A study of Mus musculus with 18 samples.

Results

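Mouse embryonic stem cells labelled as lacking all 6 Pcgf genes (Pcgf1/2/3/4/5/6-/-, called Pcgf-6KO) were compared with cells labelled as lacking both Ring1 genes (Ring1a/b-/-, called Ring1a/b-dKO or the double knockout). The comparison used the 3 libraries of each line, 6 of the 18 libraries of the study, and ran across 17842 of the 56551 genes in the deposited table, those at 1 TPM or more in at least 3 of the 18 libraries. TPM is a transcript's share of a library scaled to 1000000. The other 4 groups, each with 3 libraries, were wild type (WT), Ring1a-KO, Ring1b-KO and Pcgf-4KO (Pcgf1/3/5/6-/-), and are used here as points of reference. Total RNA was made from trypsin-detached cells. The means of disruption, the culture medium and the number of clones per line are details not given here, so line and genotype cannot be told apart. Nothing in the labels ties the replicates to different cultures or clones, and p-values therefore measure the spread between these libraries.

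Polycomb repressive complex 1 (PRC1) is a histone H2A ubiquitin ligase that keeps developmental genes silent in stem cells. Its catalytic core pairs a RING subunit, Ring1a (gene Ring1) or Ring1b (gene Rnf2), with a Pcgf protein, and the choice of Pcgf protein sets the class: Pcgf2 and Pcgf4 (gene Bmi1) build the canonical complexes that hold Cbx and Phc subunits, while Pcgf1, Pcgf3, Pcgf5 and Pcgf6 build the variant complexes that hold Rybp or Yaf2. The comparison asks how a line labelled as lacking the Pcgf genes differs from one labelled as lacking the Ring1 genes.

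The transcripts of the targeted genes separated the lines in the direction of their labels for Rnf2, Pcgf1, Pcgf2, Pcgf3, Pcgf5 and Pcgf6. Rnf2, which encodes Ring1b, was at 24.7, 24.2 and 19.4 TPM in the double knockout and at 75.8, 79.9 and 81.2 TPM in Pcgf-6KO, a log2 difference, always Pcgf-6KO minus the double knockout, of 1.76 ± 0.08 (SE, here and below on the log2(TPM + 1) scale, adjusted p = 1.31e-10 by limma). Where 2 values are joined by "against", the double knockout comes first unless a gene is called higher or lower at a value, which is then that of Pcgf-6KO. Pcgf6, of the variant complex that binds germline promoters, was at 45.5, 44.9 and 47.1 TPM against 11, 11.2 and 9.73 TPM (-2.01 ± 0.06). Pcgf2 was at 49.3, 54.5 and 52.9 TPM in the double knockout and at 17.9, 15.4 and 17.03 TPM in Pcgf-6KO (-1.58 ± 0.07). In all 3 genes the libraries of the lines lay well apart, yet the line labelled as lacking the gene still held transcript.

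Pcgf1 was at 20.8, 20.9 and 22 TPM in the double knockout and at 2.16, 4.28 and 2.66 TPM in Pcgf-6KO. Pcgf3 was at 18.6, 17.5 and 18.7 TPM against 10.2, 11.95 and 15.1 TPM, and Pcgf5 at 27.1, 25.6 and 26.6 TPM against 23.3, 22.04 and 21.0 TPM, so in Pcgf-6KO Pcgf3 overlapped WT (12.7 to 13.5 TPM) and Pcgf5 was above it (9.01 to 10.1 TPM). Bmi1 was not called: its libraries overlapped at 14.4, 14.8 and 16.2 TPM in the double knockout and 14.3, 16.1 and 16.3 TPM in Pcgf-6KO, all above the 0.88 to 2.5 TPM of WT. Ring1 was at 2.74, 6.12 and 9.4 TPM in the double knockout and 12.3, 8.69 and 9.71 TPM in Pcgf-6KO. The libraries of Ring1 overlapped, and its call (0.77 ± 0.28, adjusted p = 0.0266) was lost without Pcgf-6KO replicate 1 or without double knockout replicate 1. Since TPM is summed over a gene, loss of single exons cannot be read from it, and these values do not test the knockouts themselves.

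**Figure D1:**
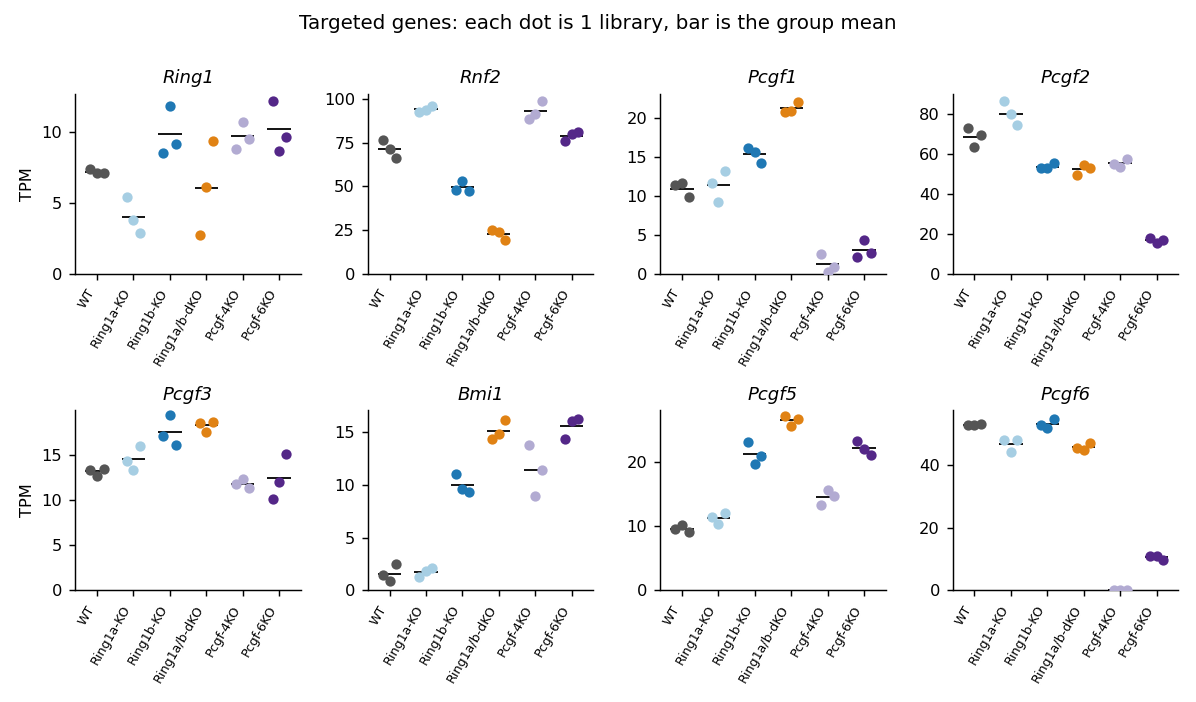
TPM (linear axis from 0) of the 8 targeted genes in each library of the 6 groups, with the group mean as a bar. Rnf2 is lowest in Ring1a/b-dKO, Pcgf2 is lowest in Pcgf-6KO at 15.4 to 17.9 TPM, and Bmi1 overlaps between both lines.

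Embryonic stem cell markers were present in both lines. The summed TPM of the core pluripotency list was below WT in both. That of the naive list was above WT in the double knockout (1211 to 1231 TPM, with 987 to 1023 TPM in WT) and below it in Pcgf-6KO (737 to 798 TPM). Pou5f1, which encodes Oct4, was at 386 to 427 TPM in Pcgf-6KO, 581 to 612 TPM in the double knockout and 1101 to 1120 TPM in WT. Markers of fibroblasts, as from feeder layers, were mixed. Of 16 listed, Col1a2, Col3a1, Dcn, Lum, Postn and Fap had means of at most 0.51 TPM in Pcgf-6KO. Of the 10 tested, 3 were called higher and 4 lower. The higher ones were Tagln, Acta2 and Vim, at log2 differences of 2.90, 2.25 and 0.63. The summed TPM of the whole fibroblast list was 193 to 211 in Pcgf-6KO, 96.0 to 99.2 in the double knockout and 101 to 117 in WT. It was carried by the cytoskeletal genes Tagln and Vim. Of 9 blood and endothelial markers tested, 2 were higher and 2 lower, below the shares over all genes tested (28.3% and 29.6%). Their list summed to 40.9 to 46.0 TPM in the double knockout and 40.4 to 50.7 TPM in Pcgf-6KO. Csf1r, a macrophage and trophoblast growth factor receptor gene, was higher at 8.07 to 11.5 TPM against 0.68 to 0.72 TPM, and the endothelial receptor gene Tie1 at 2.29 to 2.44 TPM against 0.33 to 0.34 TPM. The defining markers Ptprc (0.03 TPM in Pcgf-6KO), Hbb-bt and Emcn (both listed at 0 in both lines) were low. The part of such cells in other results was not tested. Pcgf-6KO libraries varied more than those of the double knockout (median SD 0.151 against 0.083 log2 units), most between replicates 1 and 3. Mitochondrially encoded genes took 3.58 to 4.65% of TPM in Pcgf-6KO and 5.00 to 5.42% in the double knockout.

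Chromosome 6 stood apart in Pcgf-6KO. Among protein-coding genes at 5 TPM or more in WT, the median log2 difference was -0.357 over 389 genes of chromosome 6, and -0.124 to 0.054 on the other 19 chromosomes counted. The shift lay in the part beyond 75 Mb, a limit chosen after the values were seen: the median there was -0.446 over 242 genes, 171 of them called lower and 20 called higher, against -0.121 over 147 genes nearer the centromere. It was present in each Pcgf-6KO library, at -0.542, -0.454 and -0.424 from the double knockout mean, and at -0.368, -0.291 and -0.229 from WT. The double knockout itself was at 0.137 from WT. Pcgf1, Nanog, Phc1, Rybp, Aebp2, Gapdh and Tuba3a lie in this stretch. DNA copy number was not measured, and the part that the chromosome-wide shift plays in the values of these genes was not tested.

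**Figure D2:**
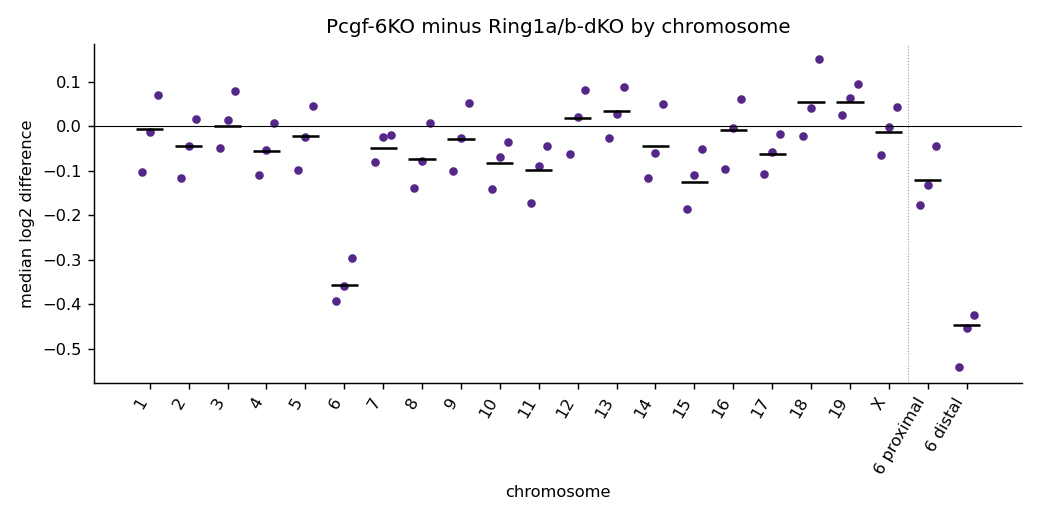
Median log2 difference, Pcgf-6KO minus the double knockout, over protein-coding genes at 5 TPM or more in WT, by chromosome: dots are the 3 Pcgf-6KO libraries against the double knockout mean, bars the difference of the group means. Chromosome 6 (-0.357), and within it the distal part (-0.446), lies below all others.

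The 2 lines differed at most of the genes tested. Of 17842 genes, 10341 were called at an adjusted p under 0.05 (58%), 5055 higher in Pcgf-6KO (28.3%) and 5286 lower (29.6%), with a median difference over all genes of -0.01. Libraries of the 2 lines did not overlap at 10784 of the 17842 genes, so separation of the libraries was common. The counts of list members called higher or lower are to be read beside the 2 shares of called genes, 28.3% and 29.6%. Changes of at least 2-fold were fewer and leaned to one side: 1366 genes were higher (7.66%) and 671 lower (3.76%). The lean to higher genes depended on the genes counted: 733 were higher and 706 lower when TPM was rescaled over nuclear protein-coding genes alone, and 873 and 536 with a filter of 5 TPM. Rescaling over protein-coding genes also moved the median of all genes to -0.072, and quantile normalization moved it to -0.063. In the double knockout libraries 15807 to 15835 genes reached 1 TPM, and in those of Pcgf-6KO 16236 to 16585 did.

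**Figure D3:**
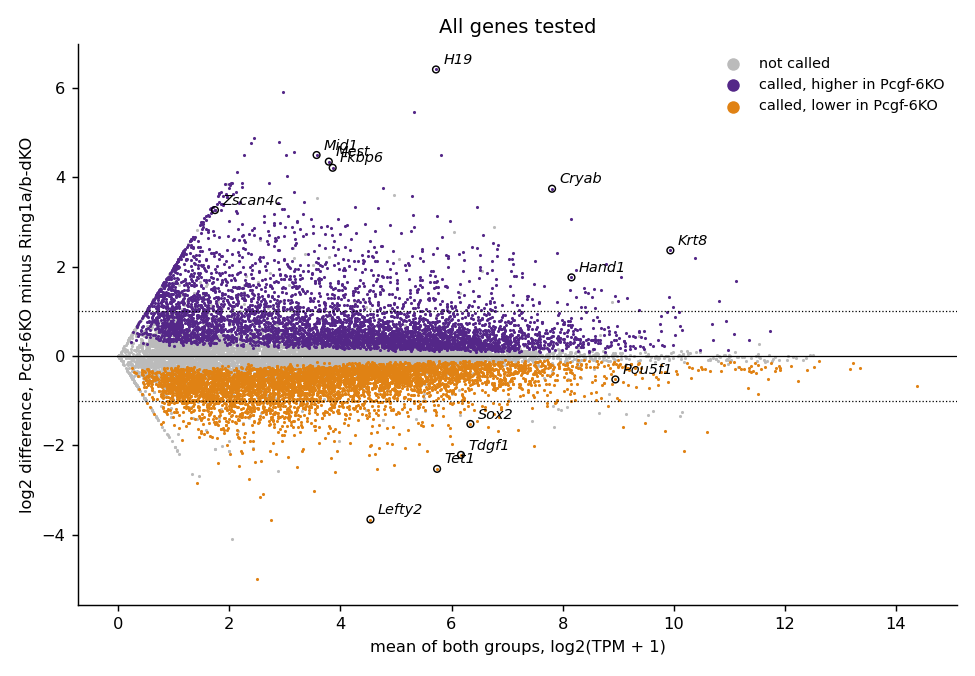
Log2 difference, Pcgf-6KO minus the double knockout, against the mean of both groups in log2(TPM + 1), 1 dot per gene tested, with dotted lines at a 2-fold change. H19 has the largest rise at 6.42, and called genes lie on both sides (5055 higher, 5286 lower).

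Genes higher and genes lower by 2-fold came from different ranges of WT expression. Of the 1366 higher genes, 49.5% were under 1 TPM in WT and 51.2% were protein-coding, whereas over all genes tested the shares were 20.3% and 80.4%. Genes without annotation, 323 of the 1366 and 927 of all 17842 tested, were counted as not protein-coding, though their type is unknown. The 671 lower genes resembled the background, with 14% under 1 TPM in WT and 85.7% protein-coding. A gene under 1 TPM in WT could enter the test only through mutant libraries, so the shares under 1 TPM are partly set by the filter. Against WT, a control that both of these contrasts share, 74.2% of genes were called in Pcgf-6KO and 64.4% in the double knockout, with median differences of 0.33 and 0.28. Another pair of lines that shares no library with this comparison, Pcgf-4KO and Ring1b-KO, differed at 58.9% of genes. In that pair the 2-fold higher genes had a median difference of 0.05 and the lower genes one of -0.13, beside 0.11 for all genes, and across the 2037 genes the correlation of the differences was weak (Pearson 0.06, Spearman 0.01, a description across genes).

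One list whose members moved together was that of 2-cell-like genes. Such genes are transcribed in the mouse embryo after the first cleavage and in a rare, transient state of stem cell cultures. Zscan4c, a telomere regulator of that state (GRCm38 chromosome 7, 11005745 to 11010547), was at 0.09, 0.05 and 0.08 TPM in the double knockout and at 8.04, 10.7 and 9.42 TPM in Pcgf-6KO, a log2 difference of 3.27 ± 0.10 (adjusted p = 2.19e-12). Zscan4f (chromosome 7, 11397915 to 11402318) was at 0.54, 0.39 and 0.25 TPM against 13.3, 12.6 and 16.03 TPM. No library of the double knockout reached a Pcgf-6KO library in either gene. The RefSeq promoters of this pair, 300 bases around the annotated start (GRCm38.p6, plus strand), are shown because the genes moved together. They share a run of 127 identical bases, and the capitals mark the letters TATAAA.
Zscan4c, chr7:11005495-11005794: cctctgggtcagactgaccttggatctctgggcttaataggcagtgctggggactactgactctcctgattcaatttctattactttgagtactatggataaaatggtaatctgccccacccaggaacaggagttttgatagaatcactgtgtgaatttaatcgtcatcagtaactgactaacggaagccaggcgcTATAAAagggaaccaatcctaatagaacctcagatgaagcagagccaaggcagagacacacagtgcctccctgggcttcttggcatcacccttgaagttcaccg
Zscan4f, chr7:11397665-11397964: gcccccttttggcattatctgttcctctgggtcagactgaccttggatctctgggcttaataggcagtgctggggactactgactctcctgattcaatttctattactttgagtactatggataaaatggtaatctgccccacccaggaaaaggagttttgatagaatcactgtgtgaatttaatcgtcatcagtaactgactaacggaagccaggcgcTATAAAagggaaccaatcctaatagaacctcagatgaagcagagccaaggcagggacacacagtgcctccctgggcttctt

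TATAAA on either strand was in 7 of the 13 2-cell-like promoters found and in 14.2% of the 27025 promoters of the RefSeq table, a match of letters and not a mapped site. Since near-identical copies are among the 13, these promoters are not independent, and the 2 shares cannot be compared. Since the Zscan4 copies are near-identical, reads may be divided among them, and values of single copies are uncertain.

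All 24 2-cell-like genes tested were called higher in Pcgf-6KO, 22 of them by at least 2-fold, with a median of 1.90. Over all genes tested, 28.3% were called higher and 7.66% by at least 2-fold. The near-identical Zscan4 copies are not independent members of this count. The list held 27 genes, of which 25 were in the table. Only 3 of the 24 reached 1 TPM in the double knockout and 1 in WT, so the filter on low values admitted the others through lines in which they were on, and the count is partly set by it. Tmem92, a membrane protein gene of the list, was at 0.05 and 0.18 TPM and listed at 0 in the double knockout and at 9.28, 9.09 and 9.64 TPM in Pcgf-6KO. Usp17le rose from 0.14 to 0.18 TPM to 6.45 to 8.7 TPM, and Duxf3, of the Dux family of factors that open this programme, from at most 0.14 TPM to 1.34 to 2.2 TPM. The summed TPM of the list was 31.3 to 33.5 in the double knockout, 141 to 164 in Pcgf-6KO, 152 to 164 in Ring1b-KO, 47.6 to 53.1 in Pcgf-4KO and 14.9 to 16.6 in WT. The sum was thus highest in Pcgf-6KO and Ring1b-KO, and the double knockout lay above WT without overlap, well below both. In bulk RNA a larger share of cells in this state and more RNA per cell cannot be told apart.

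The largest single difference was that of H19, an imprinted long non-coding RNA (chromosome 7, 142575529 to 142578143). It was at 3.96, 5.72 and 4.57 TPM in the double knockout and at 461, 490 and 507 TPM in Pcgf-6KO, a log2 difference of 6.42 ± 0.10 (adjusted p = 1.13e-15). WT libraries were at 0.14 to 0.46 TPM, Ring1b-KO at 65.6 to 71.6 TPM and Pcgf-4KO at 241 to 251 TPM, so only WT and Ring1a-KO were below the double knockout. Igf2, its imprinted neighbour and a growth factor gene, differed far less, at 536 to 548 TPM against 714 to 752 TPM (0.43 ± 0.04).

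Mest, a paternally expressed imprinted gene (chromosome 6, 30723547 to 30748465, outside the distal stretch), was at 1.93, 2.0 and 2.29 TPM in the double knockout and 58.3, 62.0 and 65.1 TPM in Pcgf-6KO (4.35 ± 0.06, adjusted p = 1.21e-16). Here the double knockout was the line away from WT, which was at 74.8 to 77.9 TPM, and Ring1a-KO was low with it at 1.26 to 1.53 TPM. Of 30 imprinted genes tested, 19 were higher and 9 lower in Pcgf-6KO, with a median of 0.43. Airn, the non-coding RNA of the Igf2r locus, was higher at 6.88 to 14.5 TPM against 1.66 to 2.84 TPM, and Impact, a regulator of translation, at 57.0 to 73.1 TPM against 25.8 to 29.2 TPM. Grb10, an adaptor that restrains growth factor signalling, was lower at 29.4 to 39.6 TPM against 107 to 110 TPM, and Dlk1, a Notch-like ligand, at 14.8 to 17.6 TPM against 30.3 to 38.5 TPM. Within the list, differences ran from -1.62 to 6.42.

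Y-linked genes and Mid1 divided the lines in another way. Ddx3y, a Y-linked RNA helicase gene, was at 0.04 and 0.02 TPM and listed at 0 in the double knockout, and at 20.1, 20.3 and 25.9 TPM in Pcgf-6KO. Eif2s3y, a Y-linked translation factor gene, was at 0.04 and 0.22 TPM and listed at 0 against 13.9, 12.4 and 15.2 TPM. All 5 Y-linked genes tested were called higher, and their summed TPM was at most 0.39 in the double knockout, 0.08 to 0.11 in Pcgf-4KO, 8.35 to 9.26 in Ring1b-KO, 42.3 to 54.6 in Pcgf-6KO and 68.1 to 73.6 in WT. Mid1, a microtubule-binding ubiquitin ligase whose gene reaches the boundary of the pseudoautosomal region in laboratory mice, was low in Ring1a-KO, Pcgf-4KO and the double knockout: it was at 1.3, 1.74 and 1.46 TPM in the double knockout and 45.1, 57.4 and 65.8 TPM in Pcgf-6KO (4.50 ± 0.11). WT had 61.4 to 63.4 TPM of Mid1, Ring1a-KO 1.4 to 1.54 TPM and Pcgf-4KO 1.22 to 1.45 TPM. Ring1b-KO differed between these genes, with Mid1 at 49.8 to 58.4 TPM, near WT, and Eif2s3y at 1.52 to 2.4 TPM, far below the 40.6 to 43.6 TPM of WT. Presence of the Y chromosome was not measured, and its part in these differences was not tested.

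**Figure D4:**
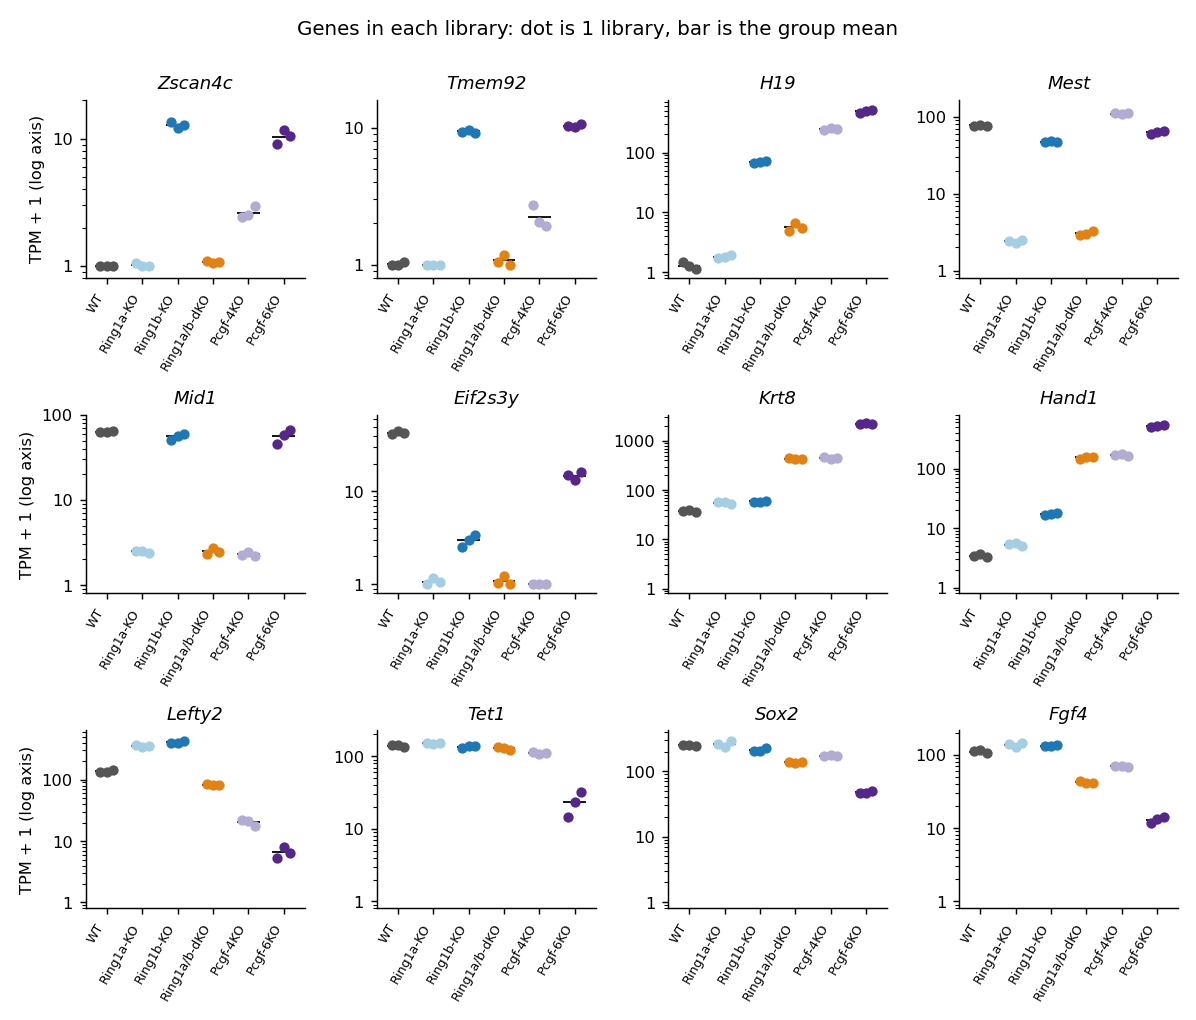
TPM + 1 (log axis) of 12 genes in each library of the 6 groups, with the group mean as a bar. Zscan4c and Tmem92 are high in Ring1b-KO and Pcgf-6KO, Mid1 and Eif2s3y are low in Ring1a-KO, Ring1a/b-dKO and Pcgf-4KO, and Tet1 is low in Pcgf-6KO alone among the 6 groups.

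Fkbp6, a germ cell co-chaperone of the piRNA pathway, had the largest rise among germline genes. It was at 2.17, 2.36 and 2.61 TPM in the double knockout and 60.5, 60.4 and 64.3 TPM in Pcgf-6KO (4.21 ± 0.09, adjusted p = 4.24e-14), with 43.9 to 49.1 TPM in Ring1b-KO and 38.1 to 39.9 TPM in Pcgf-4KO. The double knockout was thus the low line among those lacking Ring1b or Pcgf6. Its RefSeq promoter is shown, on the minus strand, because the letters CACGTG, in capitals, are the E-box read by the Mga and Max proteins of the Pcgf6 complex.
Fkbp6, chr5:135349995-135350294: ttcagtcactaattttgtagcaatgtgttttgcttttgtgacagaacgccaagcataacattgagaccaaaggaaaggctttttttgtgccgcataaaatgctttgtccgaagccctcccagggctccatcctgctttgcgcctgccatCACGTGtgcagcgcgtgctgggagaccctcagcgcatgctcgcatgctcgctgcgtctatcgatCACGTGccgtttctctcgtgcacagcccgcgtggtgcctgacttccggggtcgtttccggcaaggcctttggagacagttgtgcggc

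The letters CACGTG were in 16 of the 45 promoters found for germline and meiosis genes and in 7.2% of all promoters in the table. Binding was not measured.

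The remaining germline genes mostly leaned the other way. Of 51 germline and meiosis genes tested, 7 were higher and 23 lower in Pcgf-6KO, with a median of -0.23. Tuba3a, a testis tubulin gene on distal chromosome 6, was at 83.4 to 84.1 TPM in the double knockout and 18.9 to 21.99 TPM in Pcgf-6KO. Syce3, of the synaptonemal complex, was at 36.9 to 40.4 TPM against 10.9 to 16.03 TPM, and Tdrd6, a germ granule scaffold, at 2.3 to 3.75 TPM against 0.18 to 0.87 TPM. Mageb4, an X-linked testis gene, was higher at 42.5 to 48.2 TPM against 20.7 to 21.6 TPM, and Dazl, an RNA-binding protein of germ cells, at 18 to 20.4 TPM against 10.6 to 12.3 TPM. Taf7l, a germ cell transcription factor subunit, was not called, at 103, 99.2 and 96.5 TPM against 109, 107 and 117 TPM in Pcgf-6KO. Among X-linked genes outside the list, Xlr5b was higher at 13.4 to 16.2 TPM, with 1 double knockout library at 0.23 TPM and the others listed at 0, and Rhox12 at 11 to 13.2 TPM against 0.09 to 0.18 TPM. Xlr and Rhox genes have near-identical copies, which leaves their single values uncertain.

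Epithelial and trophoblast genes were the next large block higher in Pcgf-6KO. Krt8, the simple epithelial keratin that pairs with Krt18 (chromosome 15, 101996698 to 102004482), was at 446, 421 and 428 TPM in the double knockout and 2229, 2262 and 2192 TPM in Pcgf-6KO (2.37 ± 0.05, adjusted p = 2.39e-14). Krt18 was at 608 to 629 TPM against 2819 to 2921 TPM. WT held 35.4 to 37.6 TPM of Krt8, so the double knockout was already above it and Pcgf-6KO was above both. Of 34 epithelial genes tested, 28 were higher and 5 lower, with a median of 0.82. The claudin Cldn4 was at 361 to 364 TPM against 875 to 915 TPM, the galectin Lgals3 at 82.4 to 87.8 TPM against 346 to 406 TPM, and the annexin Anxa3 at 80.0 to 88.5 TPM against 276 to 293 TPM. Not every epithelial gene followed: Krt17 was lower at 10.9 to 12.1 TPM against 49.9 to 54.7 TPM, and the adhesion gene Epcam at 137 to 141 TPM against 202 to 210 TPM. Of the 40 genes on the list, Krt5, Trp63, Dsg3 and Krt23, which mark stratified layers or specialised epithelia, were at means of 0.36 TPM or less in Pcgf-6KO and were not tested.

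Trophoblast genes, which mark the placental lineage, shared the keratins and added transcription factors. Hand1, a basic helix-loop-helix factor of trophoblast giant cells and heart, was at 146, 159 and 157 TPM in the double knockout and 506, 530 and 538 TPM in Pcgf-6KO (1.76 ± 0.06, adjusted p = 2.87e-12), with 2.29 to 2.73 TPM in WT. Plac1 was at 1.01 to 1.25 TPM against 12.5 to 13.5 TPM, Ascl2 at 11.8 to 14.3 TPM against 42.4 to 47.8 TPM, and Rhox6 at 64.5 to 69.6 TPM against 263 to 302 TPM. Of 22 trophoblast genes tested, 15 were higher and 3 lower, with a median of 0.76. The 3 lower ones were Phlda2 (-0.76 ± 0.05), Tfap2c (-0.39 ± 0.05) and Eomes. Libraries of Phlda2 and Tfap2c did not overlap between the lines, and both calls were kept under every alternative. Factors at the top of the lineage differed less. Cdx2 was not called, at 9.01, 8.75 and 8.74 TPM in the double knockout against 8.35, 9.65 and 10 TPM, and Elf5, with means of 1.43 TPM against 1.57 TPM, was not called either. Eomes was at 12.3 to 13.8 TPM against 9.81 to 11.96 TPM, with a call (-0.26, adjusted p = 0.0273) that was lost without either of replicates 1 and 2 of either line. The mature placental hormone genes Prl3d1 and Prl2c2 were at means of 0.22 and 0.17 TPM in Pcgf-6KO, under the filter. The summed TPM of the list was 446 to 451 in WT, 2523 to 2539 in the double knockout and 7763 to 7869 in Pcgf-6KO.

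Targets of p53 were higher and proliferation genes were lower in Pcgf-6KO. Cdkn1a, which encodes the cell cycle inhibitor p21, was at 104, 104 and 99.2 TPM in the double knockout and 248, 263 and 273 TPM in Pcgf-6KO (1.34 ± 0.04, adjusted p = 1.84e-12). Of 26 p53 targets, 21 were higher and 1 lower, with a median of 0.58. Perp, a desmosomal p53 target that is also in the epithelial list, was at 99.4 to 104 TPM against 311 to 318 TPM, and Mdm2, the ubiquitin ligase that restrains p53, at 230 to 233 TPM against 437 to 579 TPM. The one lower target was the repair gene Ddb2, at 16.1 to 17.4 TPM against 11.9 to 12.6 TPM in Pcgf-6KO. Cdkn2a, the Ink4a/Arf locus and a known PRC1 target, was at 62.0 to 72.4 TPM in the double knockout and 83.2 to 98.6 TPM in Pcgf-6KO (0.44 ± 0.08).

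None of the 33 cell cycle and replication genes was called higher, and 30 were called lower, with a median of -0.55. Top2a, the topoisomerase of dividing cells, was at 398, 398 and 401 TPM in the double knockout and 194, 200 and 205 TPM in Pcgf-6KO. Ccnb2, a mitotic cyclin, was at 117 to 119 TPM against 53.9 to 56.7 TPM (-1.08 ± 0.04), and the proliferation marker Mki67 at 59.8 to 63.0 TPM against 23.5 to 35.8 TPM. Rrm1, Mcm4 and Ccne2 were not called. Replication-dependent histone transcripts took 0.041 to 0.044% of TPM in the double knockout and 0.108 to 0.113% in Pcgf-6KO, a share in the other direction.

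The core pluripotency network was lower in Pcgf-6KO than in the double knockout. Of 18 core genes, 16 were called lower and none higher, with a median of -0.68. Sox2 was at 138, 135 and 136 TPM in the double knockout and 45.9, 46.0 and 48.4 TPM in Pcgf-6KO (-1.52 ± 0.06, adjusted p = 1.16e-11), with 240 to 253 TPM in WT. Pou5f1 was lower by less, at 581 to 612 TPM against 386 to 427 TPM (-0.52 ± 0.04). Nr0b1, an Oct4-binding nuclear receptor, was at 49.4 to 54.5 TPM against 9.65 to 12.2 TPM, and Tdgf1, the Nodal co-receptor Cripto, at 152 to 158 TPM against 31.1 to 33.9 TPM. Nanog, on distal chromosome 6, was at 34.1 to 37.4 TPM against 23.7 to 25.5 TPM (-0.55 ± 0.05). In each of these 5 genes the libraries of both lines were below those of WT, and Pcgf-6KO was the lower of the 2 without overlap. Over all genes tested, the libraries of the 2 lines did not overlap at 10784 of 17842.

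Naive genes, which hold stem cells in the ground state, also leaned lower, with a smaller median difference. Of 20, 14 were lower and 2 higher, with a median of -0.38. Esrrb, an orphan nuclear receptor, was at 173 to 177 TPM in the double knockout and 68.4 to 89.3 TPM in Pcgf-6KO, and Tcl1, a kinase co-activator, at 33.3 to 36.4 TPM against 6.59 to 9.91 TPM. Both genes were above the WT level in the double knockout (WT Esrrb 129 to 137 TPM, Tcl1 18.9 to 20.4 TPM). Klf4 was called slightly higher, at 9.7 to 12.4 TPM against 8.79 to 9.37 TPM, a call that was lost with only the 6 libraries in the fit. Dppa3, Klf5 and Tbx3 were not called. Formative genes, switched on when cells prepare to differentiate, had 12 of 17 lower and 2 higher: Etv4, an Fgf-responsive factor, was at 116 to 117 TPM against 29.3 to 35.3 TPM, whereas Otx2 was higher at 9.31 to 10.6 TPM against 3.74 to 4.52 TPM.

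**Figure D5:**
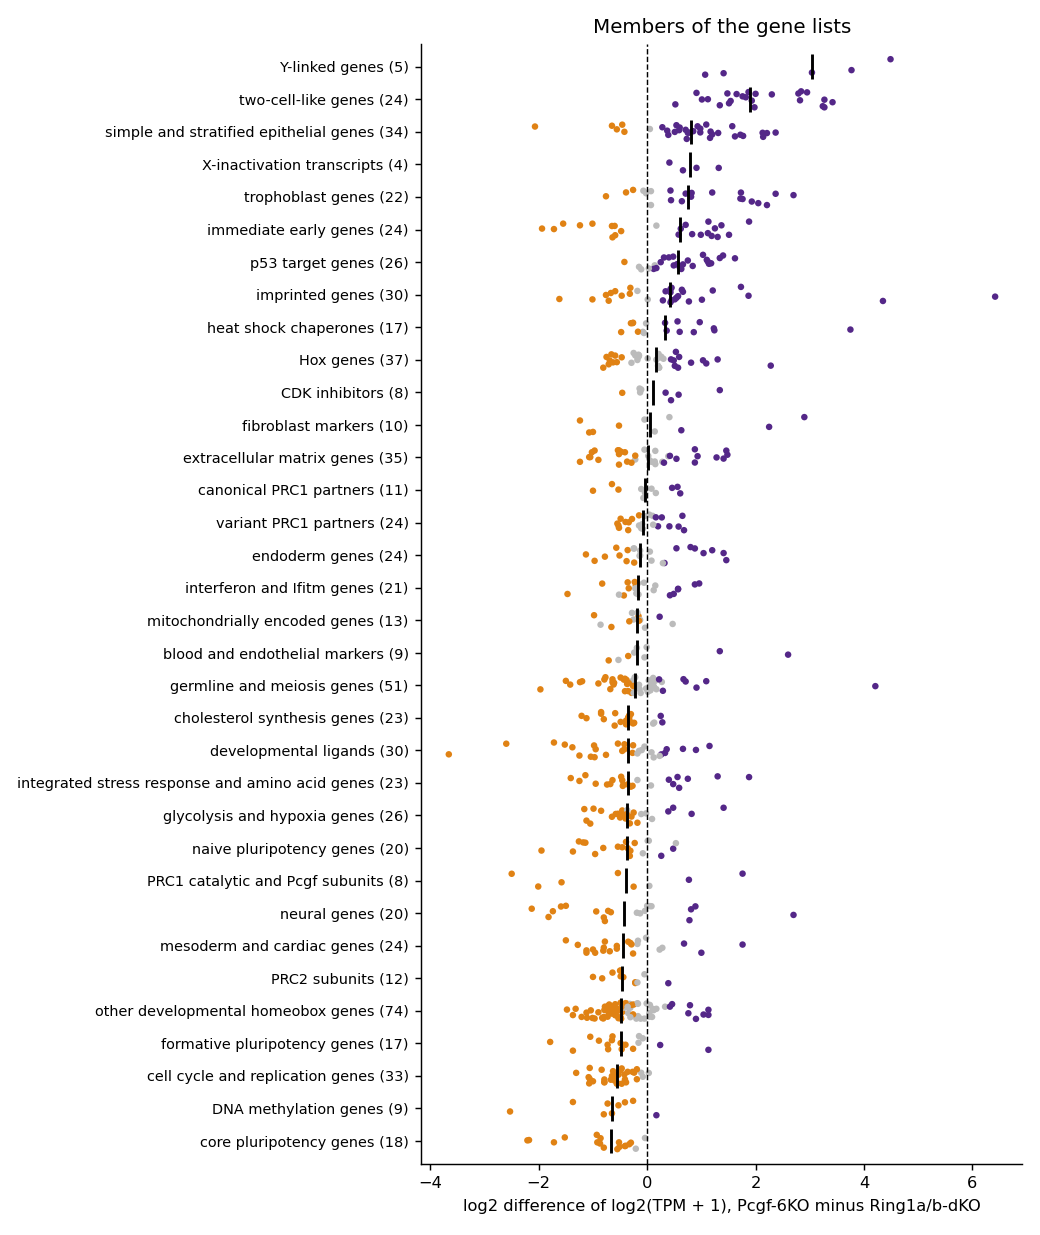
Log2 difference of every tested member of the 34 gene lists, 1 dot per gene (purple called higher, orange called lower in Pcgf-6KO, grey not called), with the list median as a bar, the number tested in brackets and the median of all genes, -0.01, as a dashed line. Core pluripotency genes have a median of -0.68 with none called higher, and 2-cell-like genes one of 1.90 with none called lower. The 2-cell-like count is partly set by the filter on low values.

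Several Nodal and Fgf pathway genes were lower in Pcgf-6KO. Lefty2, a secreted Nodal antagonist (chromosome 1, 180893108 to 180899103), was at 82.9, 81.8 and 79.9 TPM in the double knockout and 4.37, 7.01 and 5.46 TPM in Pcgf-6KO (-3.66 ± 0.11, adjusted p = 1.83e-12), with 131 to 142 TPM in WT. Lefty1 was at 33.5 to 40.8 TPM against 3.78 to 6.02 TPM, and the ligand Nodal at means of 46.96 TPM against 31.9 TPM. Fgf4, the ligand that drives ERK signalling in stem cells, was at 43.0, 40.3 and 40.7 TPM against 10.7, 12.2 and 12.9 TPM (-1.72 ± 0.06). Of 30 developmental ligands tested, 17 were lower and 6 higher, with a median of -0.35. Wnt7b was among the higher ones, at 18.2 to 18.7 TPM against 38.5 to 45.2 TPM in Pcgf-6KO.

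Immediate early genes went both ways. With the double knockout given first, Spry4 (22.7 to 24.0 TPM against 4.69 to 6.17 TPM), Dusp6 (81.6 to 88.7 TPM against 26.9 to 29.5 TPM) and Egr1 (23.2 to 24.6 TPM against 6.11 to 7.3 TPM) were lower in Pcgf-6KO. In the same order, the AP-1 subunits Jun (31.3 to 31.9 TPM against 75.7 to 84.3 TPM), Fos (7.21 to 8.32 TPM against 17.4 to 20.2 TPM) and Atf3 (7.91 to 13.8 TPM against 36.1 to 42.7 TPM) were higher, as was the phosphatase gene Dusp1 at 45.2 to 46.3 TPM against 115 to 123 TPM. Dusp5, an ERK phosphatase gene, was higher too, at 22.8 to 25.9 TPM against 69.6 to 70.7 TPM, while the feedback genes Spry4 and Dusp6 were lower. In all, 13 of 24 were higher and 10 lower. Cells were detached with trypsin before lysis, and the part of handling in these values was not tested.

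Genes of DNA methylation, and of active demethylation, were lower. Tet1, which oxidises methylcytosine (chromosome 10, 62804570 to 62908996), was at 134, 129 and 119 TPM in the double knockout and 13.5, 22.7 and 31.2 TPM in Pcgf-6KO (-2.53 ± 0.18, adjusted p = 1.7e-08). All other groups were at 108 TPM or more, so Pcgf-6KO stood below every other library, with the widest spread of its own between replicates. Uhrf1, which brings the maintenance enzyme to replicated DNA, was at 183 to 187 TPM against 60.6 to 82.1 TPM, and that enzyme's gene, Dnmt1, at 82.8 to 84.2 TPM against 38.9 to 55.3 TPM. Of the 9 genes, 8 were lower. Tdg was called higher, with means of 60.35 TPM in the double knockout and 68.16 TPM in Pcgf-6KO, but its libraries overlapped and that call was lost under 6 of the alternatives.

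Of 11 canonical PRC1 partners, 3 were higher and 3 lower, near the shares over all genes tested (28.3% higher and 29.6% lower). Phc1, a polymerising subunit on distal chromosome 6, was at 70.4 to 71.5 TPM in the double knockout and 29.9 to 40.9 TPM in Pcgf-6KO, with 281 to 290 TPM in WT. Cbx8, a chromobox reader that is nearly silent in WT at 0.18 to 0.33 TPM, was at 12.98 to 15.5 TPM against 20.4 to 22.8 TPM, and was not called with a pseudocount of 0.1. Of 24 variant PRC1 partners, 7 were higher and 9 lower: Bcor, of the Pcgf1 complex, was at 62.5 to 66.0 TPM against 78.8 to 116 TPM, and Max, the partner of Mga in the Pcgf6 complex, at 51.4 to 67.0 TPM against 82.7 to 93.7 TPM. PRC2, the H3K27 methyltransferase, had 9 of 12 subunits lower and 1 higher, with a median of -0.46. Jarid2, an accessory subunit, was at 177 to 191 TPM against 78.7 to 105 TPM, and the catalytic Ezh2 at 91.1 to 93.4 TPM against 65.5 to 70.6 TPM.

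Hox genes, the classical PRC1 targets, were on in both lines, and were called in either direction about as often as all genes tested (28.3% higher and 29.6% lower). Of 37 tested, 11 were higher, 9 lower and 17 not called, with a median of 0.17 that became -0.03 without Pcgf-6KO replicate 3. Their summed TPM was 181 to 189 in the double knockout, 196 to 214 in Pcgf-6KO and 2.35 to 2.76 in WT, where no Hox gene reached 1 TPM. Hoxa2 was higher at 7.55 to 8.74 TPM against 0.5 to 1.22 TPM, and Hoxb9 at 16.1 to 16.5 TPM against 5.7 to 6.4 TPM. Hoxd13 was lower at 10.96 to 12.4 TPM against 17.1 to 18.6 TPM, and Hoxc4 at 1.87 to 2.25 TPM against 4.23 to 4.83 TPM. Genes of the same cluster could go opposite ways, as with Hoxd10 (2.09 to 2.34 TPM against 4.34 to 6.95 TPM in Pcgf-6KO) and Hoxd12 (1.76 to 2.22 TPM against 0.73 to 0.89 TPM). Since the members were off in WT, they entered the test through the mutant lines.

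Homeobox genes outside the Hox clusters leaned to the double knockout: 45 of 74 tested were lower in Pcgf-6KO and 8 higher, with a median of -0.48. Gsx1, a neural factor, was at 5.2 to 6.12 TPM against 1.11 to 1.72 TPM. Msx2 was higher at 16.8 to 17.5 TPM against 7.02 to 7.82 TPM. Of these 74 genes, 12 reached 1 TPM in WT and 73 in the double knockout, so most entered the test through the mutants, and the count is partly set by the filter.

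Mesoderm and cardiac genes had 16 of 24 lower and 3 higher, with a median of -0.46. Among the 24, 9 reached 1 TPM in WT and 22 in the double knockout. Most thus entered the test through the mutants, and the count is partly set by the filter. The higher genes included Hand1 (1.76) and Tnnt2. The summed TPM of the list went the other way, at 306 to 320 in the double knockout and 603 to 654 in Pcgf-6KO. Hand1 alone was at 506 to 538 TPM in Pcgf-6KO. T, which encodes Brachyury, was at 4.34, 4.57 and 3.87 TPM in the double knockout and 0.63, 1.28 and 0.71 TPM in Pcgf-6KO. Neural genes had 10 of 20 lower and 4 higher. Olig1 was at 19.1 to 20.3 TPM against 2.99 to 4.24 TPM, and Neurog1 at 7.72 to 8.48 TPM against 1.45 to 1.7 TPM. The neurofilament gene Nefm was one of the 4, with Syp, Atoh1 and Neurod1, and was higher at 10.2 to 11.7 TPM against 0.74 to 0.9 TPM. Of 24 endoderm genes 8 were called in each direction, near the 28.3% and 29.6% of all genes. Gata6, which specifies primitive endoderm, was not called at 9.0, 9.94 and 10.6 TPM against 7.53, 9.43 and 9.88 TPM, and neither was Gata4. The basement membrane collagen genes Col4a1 and Col4a2 were higher, Col4a1 at 46.5 to 51.5 TPM against 113 to 174 TPM in Pcgf-6KO. Of 35 matrix genes tested, a list that also holds Col4a1 and Col4a2, 10 were higher and 15 lower, beside 28.3% and 29.6% of all genes. Thbs1 was at 15.1 to 15.7 TPM against 35.5 to 54.8 TPM in Pcgf-6KO, and Spp1 at 299 to 303 TPM against 141 to 152 TPM.

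Of 17 heat shock chaperone genes, 9 were higher in Pcgf-6KO and 5 lower, the latter near the 29.6% of all genes tested. Cryab, the chaperone alpha-B crystallin (chromosome 9, 50751325 to 50756636), was at 56.7, 61.8 and 62.9 TPM in the double knockout and 830, 833 and 804 TPM in Pcgf-6KO (3.75 ± 0.08, adjusted p = 7.02e-14), with 2.99 to 3.47 TPM in WT. Hspb1 was at 1172 to 1190 TPM against 2635 to 2845 TPM. Dnajb4, a co-chaperone gene, was higher at 8.21 to 10.8 TPM against 3.04 to 3.48 TPM. Hspd1, a mitochondrial chaperone gene, was lower at 267 to 277 TPM against 374 to 380 TPM.

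Metabolic genes were mostly lower. Glycolysis and hypoxia genes had 18 of 26 lower and 4 higher. Ldha was at 709 to 754 TPM against 345 to 383 TPM, and the glucose transporter gene Slc2a1 was higher at 321 to 347 TPM against 190 to 191 TPM. Tpi1, Gapdh, Hk2 and Slc2a3 of this list lie on distal chromosome 6. Cholesterol synthesis genes had 19 of 23 lower and 2 higher, with a median of -0.35, among them Nsdhl at 32.1 to 34.9 TPM against 12.8 to 14.7 TPM in Pcgf-6KO. In the integrated stress response list, 14 of 23 were lower and 7 higher: the factor Atf4 was higher at 327 to 346 TPM against 194 to 206 TPM, while amino acid genes downstream of it were lower, with Asns at 102 to 103 TPM against 51.3 to 54.1 TPM. Interferon-linked genes were called about as often as all genes tested (28.3% higher and 29.6% lower), with 6 of 21 higher and 7 lower. H2-D1, a class I histocompatibility gene, was at 55.1 to 55.6 TPM against 105 to 113 TPM, and Ifitm1 was lower at 23.6 to 29.3 TPM against 67.5 to 80.2 TPM.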

How the data were processed

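RNA-seq libraries of mouse embryonic stem cells were made with a TruSeq RNA kit, per the labels' protocols. The authors deposited TPM for 56551 genes in 18 libraries. Build GRCm38.p5, TopHat2 2.1.1, edgeR and RSEM are named in the submitters' processing notes, without their roles or an annotation release. Read counts cannot be had from TPM, the depth of each library is therefore unknown, and 86 genes with a median of 5 TPM or more are listed at 0 in at least 1 library. The 6 columns of group means were not used. Symbols and positions came from GENCODE for GRCm38 (55227 genes), and 1064 assembled loci carry no gene name.

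The deposited values were used on a log2(TPM + 1) scale, on which folds of low genes come out too small. Genes reaching 1 TPM in 3 libraries were fitted with limma 3.58.1 (R 4.3.3), 1 mean per group over all 18 libraries, a trend on the mean and 12 residual degrees of freedom. Tests were two-sided, with Benjamini-Hochberg adjustment over 17842 genes and calls under 0.05. The script was tested on simulated data. The compared lines, the 34 lists, the tests and the named genes were chosen with earlier results of these data known. Named were the 8 targeted genes, the 15 largest rises and the 15 largest falls among called genes at 5 TPM or more in the higher group without overlap of libraries, up to 3 called genes per list and direction, and a fixed set; further list members are named as examples. Same-numbered libraries did not deviate together (correlations -0.015, 0.031 and -0.041), so numbers were not used as pairs. RefSeq promoters (GRCm38.p6) were found for 65.3% of genes tested and 40.3% of the 2-fold higher genes, so a comparison of promoter features over these sets is void.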

Additional observations from a re-analysis of the deposited data

How the results depend on the processing

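The number of called genes lay between 8985 (only the 6 libraries compared) and 12004 (no filter on low values), and leaving out 1 library at a time gave 9461 to 10298. Without the genes of chromosome 6, an alternative chosen after seeing the data, 9839 were called. The number changed at least 2-fold was 3088 with a pseudocount of 0.1, against 2037. With that pseudocount 1331 were lower by 2-fold, against 671. The 2-fold higher genes, 1366, became 873 with a filter of 5 TPM and 733 over nuclear protein-coding genes. The share of called genes that were higher, 48.9%, was 42.2% over nuclear protein-coding genes and 43.7% with quantile normalization. Of 187 called genes named by rule, 170 kept their call and direction under every alternative in which they were tested, 17 lost the call under at least 1, and none of the 192 reversed. Not every gene was in every run: non-coding genes such as H19 were left out over nuclear protein-coding genes. Medians of the canonical and variant PRC1 partners, Hox, endoderm, matrix and fibroblast lists changed sign under at least 1 alternative. Quality weights were fitted per group, since weights per library did not converge, and gave 9239 called genes.

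With the replicate number as a block, 10257 genes were called, 5015 higher and 5242 lower, 1363 and 676 of them by 2-fold, so the block moved no count by over 1.5 times. Same-numbered libraries of the lines did not deviate together, so the numbers do not pair them. Unknown depth limits all low values, and genes under about 1 TPM carry no reliable fold.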
